A study of Mus musculus with 122 samples.

Results

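Open chromatin regions that carried a peak only after loss of Cebpb were collected from ATAC sequencing of cultured mouse alveolar macrophages, the resident macrophages of the lung air spaces. The ATAC peak lists of 3 Cebpb knockout cultures (MxCre+ Cebpb flox/flox) and 2 control cultures (MxCre+) were merged wherever peaks shared at least 1 bp, which gave 129652 regions. A region was called gained when all 3 knockout lists and neither control list had a peak on it. This held for 5627 regions, or 4.34% of all regions. The members were chosen by the presence of a peak in each ATAC list, a measured value, so counts, heights and folds of their ATAC peaks are given as a description with no test.

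The 5 cultures came from C57BL/6 mice carrying the Mx1-cre transgene, whose promoter responds to interferon. Lavage macrophages of adult animals were expanded for 7 days with CSF2 at 20 ng/ml, and mouse IFNα at 1000 units/ml was then added to knockout and control cultures alike. Both groups therefore carry the Cre and the interferon exposure, and differ in the floxed Cebpb allele. RNA was not measured in these cultures. Gene counts were taken from sorted cells of other animals, in 10 comparisons of Cebpb-deficient cells with their controls. Adult lavage macrophages from Cebpb -/- mice on a mixed background (strain C/EBPb tm1Pfj) were set against Cebpb +/+ mice in 3 experiments. These were CD11b low cells (n = 4) and CD11b high cells (n = 4) of knockout mice against 1 shared group of 4 unsplit wild-type libraries, a set from 2 animal facilities and both sexes (6 knockout, 7 wild-type libraries), and a chromatin-matched set whose RNA was taken beside other chromatin libraries (3 and 3). Adult macrophages with Cre deletion, on C57BL/6, came from LyzM Cre/Cre Cebpb flox/flox mice against Cebpb flox/flox mice without Cre (2 and 2), and from CD11c +/Cre Cebpb flox/flox mice against CD11c +/Cre mice (4 and 3). Whole lungs of Cebpb -/- and Cebpb +/+ fetuses at embryonic day 18 (E18) gave premature alveolar macrophages (4 and 3) and Ly6Chi fetal monocytes (4 and 3). In mixed bone marrow chimeras, CD11c +/Cre Cebpb flox/flox CD45.2 and wild-type CD45.1 macrophages grew in irradiated hosts that had received both marrows, and were taken 5 weeks (4 and 3) and 10 weeks (3 and 4) after transfer. An eleventh comparison set Lip/Lip mice (strain C/EBPtm1.2Acle, mixed background, n = 4) against Lip +/+ mice (n = 4). The fit of the facility set also held 3 Cebpb heterozygous female libraries of facility 1, which entered no contrast. Total counts ran from 642269 to 17834909 per library. The labels number libraries but do not tie them to single animals, so p-values measure the spread between libraries, which may be technical.

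ATAC sequencing marks stretches of DNA that are free of packed nucleosomes and open to an added transposase, which include active promoters and enhancers. C/EBPβ is a leucine zipper transcription factor of macrophages that binds such enhancers, often beside PU.1 and AP-1. In alveolar macrophages GM-CSF signalling and the lipid receptor PPARγ maintain the cell type. C/EBPβ binding and nearby gene counts are therefore given for the gained regions one after the other.

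Few gained regions lay on promoters. The promoter table used here (RefSeq, GRCm38.p6) gives 32851 windows from 250 bases before to 50 bases after a gene start. Gained regions covered 98 of these windows, with 89 regions and 93 genes. The 250 bases before the start are printed for 6 such genes, since these are the gained regions whose sequence can be tied to 1 gene and its counts. Klrb1f, Sdcbp2 and Zbtb32 are covered by the highest peaks among promoter regions whose gene was tested, and Cdkn1a, S100a4 and Ablim1 were chosen after their counts were seen. All run 5′ to 3′ on the strand of the gene, and capitals mark motif matches.
Cdkn1a, chr17:29090729-29090978, plus strand: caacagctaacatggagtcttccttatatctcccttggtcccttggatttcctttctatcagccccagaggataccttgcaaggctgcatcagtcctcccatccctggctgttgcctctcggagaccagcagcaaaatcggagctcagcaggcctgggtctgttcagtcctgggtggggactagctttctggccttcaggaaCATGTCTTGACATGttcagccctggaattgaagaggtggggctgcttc
S100a4, chr3:90603520-90603769, plus strand: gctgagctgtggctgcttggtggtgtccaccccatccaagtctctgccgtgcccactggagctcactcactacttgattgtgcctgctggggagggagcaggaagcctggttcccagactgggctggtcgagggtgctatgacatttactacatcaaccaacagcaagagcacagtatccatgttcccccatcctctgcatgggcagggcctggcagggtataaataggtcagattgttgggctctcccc
Ablim1, chr19:57119025-57119274, minus strand: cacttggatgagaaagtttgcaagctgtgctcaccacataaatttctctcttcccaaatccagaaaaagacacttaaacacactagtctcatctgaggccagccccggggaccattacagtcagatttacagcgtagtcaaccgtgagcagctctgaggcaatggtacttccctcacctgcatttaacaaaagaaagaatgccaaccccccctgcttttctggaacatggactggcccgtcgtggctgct
Klrb1f, chr6:129045651-129045900, plus strand: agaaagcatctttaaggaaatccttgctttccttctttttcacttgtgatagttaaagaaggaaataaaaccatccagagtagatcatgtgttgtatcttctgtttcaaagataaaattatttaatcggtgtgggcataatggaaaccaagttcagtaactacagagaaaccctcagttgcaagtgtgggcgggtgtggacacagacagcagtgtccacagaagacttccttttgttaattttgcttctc
Sdcbp2, chr2:151572373-151572622, plus strand: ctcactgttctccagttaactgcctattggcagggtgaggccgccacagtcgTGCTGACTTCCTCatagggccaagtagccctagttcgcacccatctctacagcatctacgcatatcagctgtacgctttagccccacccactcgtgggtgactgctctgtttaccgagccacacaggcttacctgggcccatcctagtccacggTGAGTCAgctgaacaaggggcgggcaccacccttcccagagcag
Zbtb32, chr7:30592943-30593192, minus strand: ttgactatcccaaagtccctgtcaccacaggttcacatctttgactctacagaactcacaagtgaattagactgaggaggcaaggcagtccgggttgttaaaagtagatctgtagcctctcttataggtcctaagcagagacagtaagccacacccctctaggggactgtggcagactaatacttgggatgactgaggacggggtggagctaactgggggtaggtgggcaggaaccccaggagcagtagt

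The gained regions covered all 250 printed bases of Cdkn1a, Ablim1 and Klrb1f, 156 of S100a4, 115 of Sdcbp2 and 77 of Zbtb32. Peak heights are the −log10 q of the authors' peak caller in knockout cultures 1, 2 and 3. They were 8.68, 6.78 and 8.93 for the region of Cdkn1a (chr17:29090604-29091001), 18, 12.7 and 11.8 for that of Klrb1f (chr6:129045641-129046065), and 19.2, 11.1 and 13.7 for that of Sdcbp2 (chr2:151571919-151572487). All 7 motifs below were searched on both strands. The Cdkn1a window held the p53 motif CATGTNNNNACATG, a motif added to the search after this sequence had been read. The Sdcbp2 window held a MAF recognition site (TGCTGAC) that shares bases with a PU.1 site (GAGGAAGT, on the opposite strand), and nearer the start an AP-1 site (TGANTCA), which lies outside the 115 bases that the gained region covers. No searched motif was found in the other 4 windows, which says only that these letters are absent from them.

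Over whole windows, the C/EBP motif TTGCNNAA was present in 8.16% of the 98 windows covered by gained regions (95% interval 3.59% to 15.5%), in 15.9% of the 138 windows covered by lost regions (10.3% to 23.1%) and in 9.56% of all windows. Lost regions are those with a peak in both control lists and in no knockout list. The AP-1 motif was present in 11.2% of windows under gained regions (5.74% to 19.2%), in 4.60% of the 11594 windows under regions open in all 5 lists and in 6.75% of all windows. PU.1 letters were found in 5.10% of windows under gained regions (1.68% to 11.5%), against 2.44% of all windows. The MAF letters stood in 6.12% of windows under gained regions and in 3.81% of all windows. For TGATGCAA, the letters of a joined C/EBP and ATF site, the shares were 2.04% and 0.792%. The interferon response element GAAANNGAAA was found in 2.04% and 2.98%. The p53 letters stood in 1 of the 98 windows and in 36 of all windows. The share in all windows lay within the interval of the gained share for each of these 7 motifs. Intervals here are exact Clopper-Pearson intervals and cover counting error only.

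The knockout lists held 101952, 90597 and 88282 peaks, and the control lists 81880 and 92432. Regions open in all 5 lists numbered 52338 (40.4%), and lost regions 4960 (3.83%). Beside the 5627 gained regions, 8610 regions had peaks in all 3 knockout lists and in 1 control list, and 7263 had peaks in exactly 2 knockout lists and in no control list. These are the neighbours just outside the rule. The median −log10 q of gained regions was 8.40, 6.81 and 6.87 in the 3 knockout lists. It was 9.98, 7.69 and 7.63 for regions with 1 control peak, and 5.81, 5.24 and 5.19 for regions found in 2 knockout lists. Gained regions therefore sat below the middle of each knockout list, at median percentiles of 38.9, 33.6 and 33.6. Their median fold over local background, as the authors' peak caller gave it, was 5.24, 5.04 and 4.83.

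**Figure D1:**
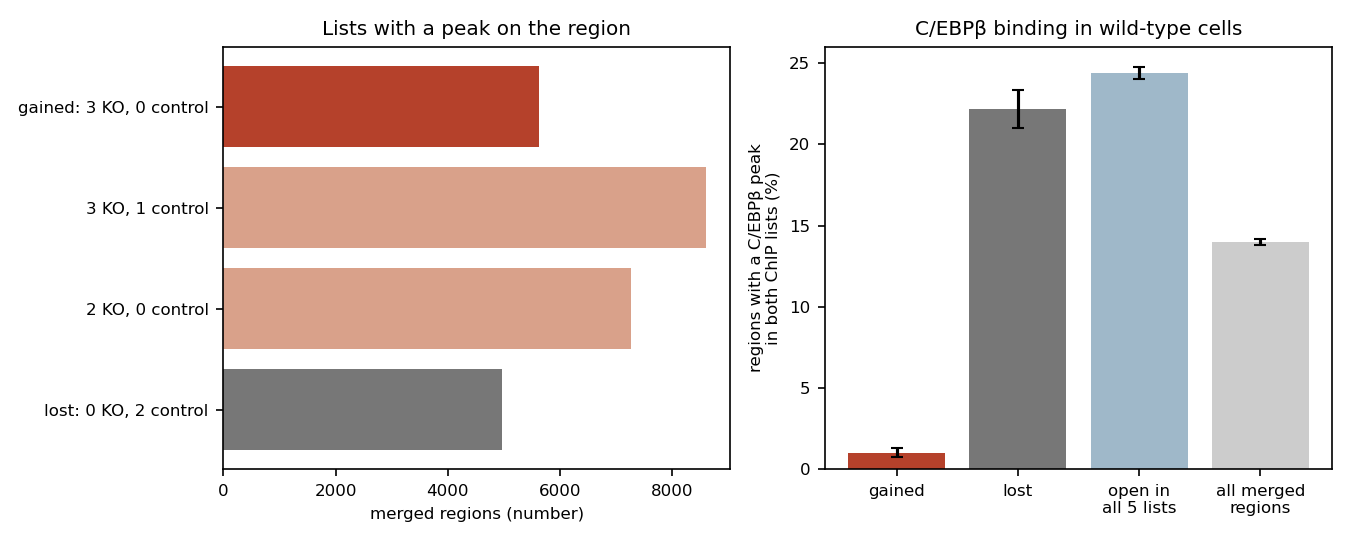
Left, numbers of merged ATAC regions by the lists that hold a peak; right, the share of each set that overlaps a C/EBPβ peak in both ChIP lists, with exact 95% intervals. The 5627 gained regions outnumber the 4960 lost regions, and 0.995% of gained against 22.2% of lost regions carry a C/EBPβ peak.

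How many regions were gained, and whether more were gained than lost, depended on the peak threshold. With peaks at a −log10 q of 3 or more, 5323 regions were gained and 5097 lost. At 5 or more, 4195 were gained and 5170 lost. When each list was held to as many of its strongest peaks as the shortest list has, 4416 were gained and 5724 lost, so the order of both counts turned. Leaving out 1 knockout culture gave 6859 (without culture 1), 8551 (culture 2) or 8931 (culture 3) gained regions. Leaving out control culture 1 gave 8515, and leaving out control culture 2 gave 11465. Lost regions numbered 6916, 5941 and 5712 without knockout culture 1, 2 and 3, and 12963 and 9167 without control culture 1 and 2. Each list left out removes 1 condition of the rule, so higher counts are built into these settings. Of the 5627 regions, 3167 overlapped a region gained at a −log10 q of 5 or more.

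Cebpb itself gave a check of the labels. On Cebpb (chr2:167688915-167690432) no knockout list had a peak, and each control list had 1, with a −log10 q of 9.25 and 9.49. Both ChIP lists had a peak on the gene as well. A gained region lay 3.40 kb downstream of the Cebpb start (chr2:167692005-167692622), with −log10 q of 14.8, 8.07 and 11.4. Promoters of marker genes were read in the same lists. Of 23 alveolar macrophage identity genes with a promoter window, 14, 13 and 15 had a peak there in the knockout lists, against 15 and 18 in the control lists. None of 6 epithelial and 5 erythroid marker promoters was open in any of the 5 lists. Of other cell types, 2 or 3 of 9 neutrophil, 2 or 3 of 11 dendritic cell, 1 or 2 of 9 eosinophil, mast cell and basophil, 1 of 7 lymphocyte and at most 1 of 5 stroma and endothelium marker promoters were open in each list.

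Gained regions were narrower and farther from gene starts than regions open in all lists. Their median width was 373 bp, against 338 bp for lost regions, 617 bp for regions open in all lists and 395.5 bp for all merged regions. It was 297 bp for regions with peaks in 2 knockout lists and no control list, and merged width also depends on how many lists have a peak. Gene bodies held 3207 of them, or 57.0%, against 53.2% of lost regions and 61.5% of regions open in all lists. Distances to starts were had for 5424 of the gained regions, and chromosome 18 was not used for them. Of these, 89 (1.64%) touched a promoter window and 263 (4.85%) lay within 1 kb of a start. The corresponding shares were 2.47% and 6.09% of lost regions, and 17.5% and 20.8% of regions open in all lists. The median distance to the nearest start was 22.4 kb for gained regions, 22.5 kb for lost regions, 14.0 kb for regions open in all lists and 17.2 kb for all merged regions. In these measures gained regions resembled lost regions more than constantly open ones.

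**Figure D2:**
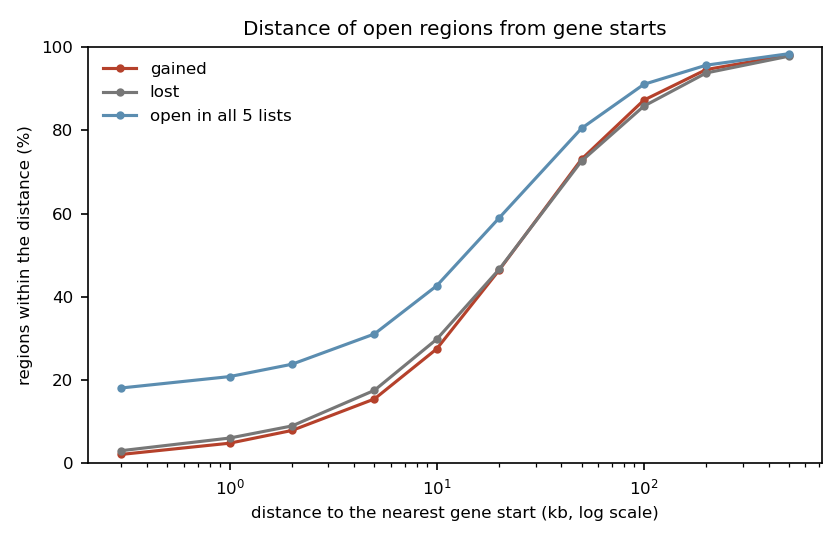
Cumulative share of regions (percent) within a given distance of the nearest gene start (kb, log axis) for gained regions, lost regions and regions open in all 5 lists. The gained and lost curves run together, with 4.85% and 6.09% within 1 kb, below the curve of constantly open regions with 20.8%.

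The gained regions were spread over the genome. By chromosome, the share of merged regions that were gained ran from 3.49% on X to 5.12% on chromosome 1, leaving out Y with 2 of 34. Another gained region lay within 10 kb of 10.3% of them, which is close to the 10.7% of lost regions that had another lost region as near. Chains of at least 3 gained regions with gaps of up to 25 kb numbered 69. The longest chains had 6 members. One spanned 46.5 kb at Gria1 (chr11:57123904-57170411), a glutamate receptor subunit gene, and the other 78.5 kb between Park2 and Agpat4. Gria1, Fat3, Pde4d and Atxn1 were each linked to 7 gained regions, the most of any named gene. Gria1 and Fat3 had too few counts to be tested in any knockout comparison. Tenm4, a neuronal teneurin gene with 6 gained regions, was tested in 5 comparisons and called higher in 4, all 4 kept with each library left out in turn. In the CD11c-Cre and LyzM-Cre sets its controls were at 0, so it passed the count filter through the knockout libraries only. Its calls there are partly set by that filter. In the chromatin-matched set Tenm4 was not tested, with 0 CPM in every knockout library.

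Fewer gained regions than lost regions met a C/EBPβ peak. ChIPmentation, a chromatin immunoprecipitation with transposase tagging, had been done on wild-type C57BL/6 lavage macrophages with an anti-C/EBPβ antibody, which gave 2 peak lists. A peak in both lists overlapped 56 gained regions, or 0.995% (95% interval 0.753% to 1.29%). The share was 22.2% of lost regions (21.0% to 23.3%), 24.4% of regions open in all lists (24.0% to 24.8%) and 14.0% of all merged regions. These shares are a description with no test. The rule asked gained regions to lack a peak in both control lists, and lost and constantly open regions to have one in both. The gained share moved with how openness in the controls was set. It was 3.76%, against 22.7% of lost regions, when presence was taken from 100 bases on either side of a peak summit, and 3.72%, against 14.1% of lost regions, without control replicate 2. Taken list by list, 107 gained regions (1.90%) met a peak of the first list and 79 (1.40%) a peak of the second. The nearest peak of the first list lay at a median distance of 27.3 kb from gained regions, 12.0 kb from lost regions and 7.89 kb from regions open in all lists. The ChIP was done on wild-type cells only, and gained regions had no ATAC peak in the control cultures.

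The tallest gained regions were in all 3 knockout cultures far above the median of gained regions. A region 5.82 kb from the predicted gene Gm21887 (chrX:170004065-170004707) had −log10 q of 70.5, 73.5 and 67.9. Second by its lowest height was a region inside Lpar1 (chr4:58506499-58507369), which encodes a receptor for lysophosphatidic acid, with 43.9, 32.6 and 36.5. Lpar1 counts were low in the chromatin-matched set, at 3.76, 3.19 and 3.44 CPM, or counts scaled to library size, in knockout libraries, against 0, 0.184 and 0 CPM in wild-type libraries. The groups did not overlap, and Lpar1 was called higher (log2 fold change 5.25, SE 0.75, edgeR adjusted p = 7.18e-04). With wild-type values this near 0, Lpar1 passed the count filter through the knockout libraries, so this call is partly set by the filter. Other regions of this rank lay in Kcnt2, Snd1, Rad51b, Stxbp6 and Armc8, and 125 kb from Cpne8. A region in Rab7b (chr1:131698774-131699208), a small GTPase gene of late endosomes, had heights of 21.8, 28.4 and 20.6. Rab7b had 113, 72.0 and 146 CPM in knockout libraries, against 67.6, 53.8 and 47.3 CPM in wild-type libraries. Its log2 fold change was 0.98 (adjusted p = 0.0188). The edgeR call ended without knockout replicate 1 (adjusted p = 0.062), wild-type replicate 2 (adjusted p = 0.0795) or wild-type replicate 3 (adjusted p = 0.0909).

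Among the 56 gained regions with a C/EBPβ peak in both ChIP lists, the tallest lay near Rpl9-ps1, Slc38a1, Lipa, Ly86, Ddx10, Vcam1, Arl11 and Gpr35. The region in Lipa, the gene of lysosomal acid lipase, is at chr19:34520221-34520578 with heights of 18.5, 11.0 and 15.0. Lipa had 224, 238 and 277 CPM in knockout libraries of the chromatin-matched set, against 562, 510 and 386 CPM in wild-type libraries. Every knockout library lay below every wild-type library (log2 fold change −0.98, SE 0.19, adjusted p = 0.00366). In the CD11c-Cre set the direction was the other one, with 651 to 810 CPM in 4 knockout libraries and 444 to 456 CPM in 3 control libraries (log2 fold change 0.72, SE 0.11, adjusted p = 6.41e-04). Over the 10 knockout comparisons Lipa was called higher in 1 and lower in 5. The region 1.04 kb from Vcam1 (chr3:116130724-116131205) stood beside a gene of vascular adhesion that was tested in only 4 comparisons and called in 1.

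Gene counts near gained regions were then read. A gene was linked to a region on its body or within 10 kb of it. This linked 3895 gained regions to 3583 of 21340 genes with coordinates, and left 1732 regions with no gene. Most linked genes had 1 region, 712 had 2 or more and 188 had 3 or more. Linked genes were long, with a median of 50.4 kb against 17.5 kb for all genes. Lost regions were linked to 3151 genes, and 990 genes were linked to both kinds. Of the 3583 genes, 2646 were tested in at least 1 knockout comparison. Calls rest on edgeR's quasi-likelihood test with Benjamini-Hochberg adjustment over all genes of a comparison, at a threshold of 0.05. Across the 10 knockout comparisons 1090 linked genes were called higher at least once and never lower, 702 lower and never higher, 229 in both directions, and 625 were tested and never called. As shares of the 2646 these were 41.2% higher, 26.5% lower and 8.65% in both directions, against 34.4%, 28.9% and 8.29% of all 11883 genes tested. The CD11b low and CD11b high comparisons share their 4 wild-type libraries, so their counts are not separate evidence.

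The chromatin-matched set had 374 of 2338 linked genes tested called higher (16.0%, background 14.6% of all genes tested) and 328 lower (14.0%, background 12.6%). Both shares stand near the background, and the median log2 fold change of linked genes was 0.02, as for all genes (0.02). The lower share was 9.25% without wild-type replicate 2. Shares with a library left out come from refits, in which the background moved too. Over all fits of this set 862 to 1799 of all genes tested were lower, and the linked share lay above theirs in 11 of 11. The facility set gave the largest count, with 741 of 2485 linked genes higher (29.8%, background 23.4%) and 500 lower (20.1%, background 22.1%). There the median log2 fold change was 0.08 for linked and 0.02 for all genes. In CD11b low cells 202 of 1987 were higher (10.2%, background 8.29%) and 140 lower (7.05%, background 6.83%), the lower share being 4.64% without wild-type replicate 2. In CD11b high cells 304 were higher (15.3%, background 12.2%) and 237 lower (11.9%, background 11.8%).

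With LyzM-Cre deletion 78 of 2028 linked genes were higher (3.85%, background 2.96%) and 34 lower (1.68%, background 1.72%). These counts turn on single libraries: the higher share was 16.0% without knockout replicate 1, 19.2% without knockout replicate 2, 1.93% without control replicate 1 and 2.45% without control replicate 2. The lower share was 8.07%, 12.9%, 0.870% and 0.971% without the same libraries. Over all fits of this set 152 to 1557 of all genes tested were higher and 62 to 1190 lower. The linked share lay above theirs in 10 of 10 fits for higher and 3 of 10 for lower. With CD11c-Cre deletion 303 of 2269 were higher (13.4%, background 10.3%) and 138 lower (6.08%, background 6.48%). The lower share was 12.1% without knockout replicate 4 and 4.05% without control replicate 1. Over all fits of the CD11c-Cre set 378 to 1214 of all genes tested were lower, and the linked share lay above theirs in 7 of 12. In E18 macrophages 358 of 2291 were higher (15.6%, background 12.0%) and 185 lower (8.08%, background 9.55%). The higher share was 10.4% without wild-type replicate 2 and 10.2% without wild-type replicate 3, and the lower share 5.37% without wild-type replicate 2. Over all fits of E18 macrophages 819 to 1357 of all genes tested were higher and 637 to 1050 lower. The linked share lay above theirs in 12 of 12 fits for higher and 0 of 12 for lower. The median log2 fold change in E18 macrophages was 0.11 for linked and −0.02 for all genes.

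In 5-week chimeras 537 of 2489 linked genes were higher (21.6%, background 17.7%) and 380 lower (15.3%, background 15.9%). Without wild-type replicate 2 these shares were 14.1% and 9.86%. Over all fits of this set 1226 to 2049 of all genes tested were higher and 1106 to 1776 lower. The linked share lay above theirs in 12 of 12 fits for higher and 1 of 12 for lower. In 10-week chimeras 522 of 2331 were higher (22.4%, background 19.8%) and 395 lower (16.9%, background 17.1%). Fetal monocytes showed few calls, with 44 of 2083 linked genes higher (2.11%, background 1.99%) and 27 lower (1.30%, background 1.64%). There the higher share was 1.21% without knockout replicate 1 and 1.11% without knockout replicate 4. It was 0.836%, 0.698% and 0.929% without wild-type replicates 1, 2 and 3, and the lower share 0.651%, 0.419% and 0.836%. Over all fits of fetal monocytes 55 to 258 of all genes tested were higher and 59 to 202 lower. The linked share lay above theirs in 11 of 12 fits for higher and 0 of 12 for lower. In the Lip set 89 of 2200 were higher (4.05%, background 3.1%) and 42 lower (1.91%, background 1.84%). The lower share was 1.25% without Lip +/+ replicate 1, 1.12% without Lip +/+ replicate 4 and 1.18% without Lip replicate 1. Over all fits of the Lip set 112 to 250 of all genes tested were lower, and the linked share lay above theirs in 11 of 13. The share called higher thus lay above its background in all 10 knockout comparisons, by 0.12 (fetal monocytes, in effect at the background) to 6.42 percentage points (facility set), while the share called lower lay on both sides of it. Bulk libraries cannot tell fewer cells of a type from less RNA per cell.

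**Figure D3:**
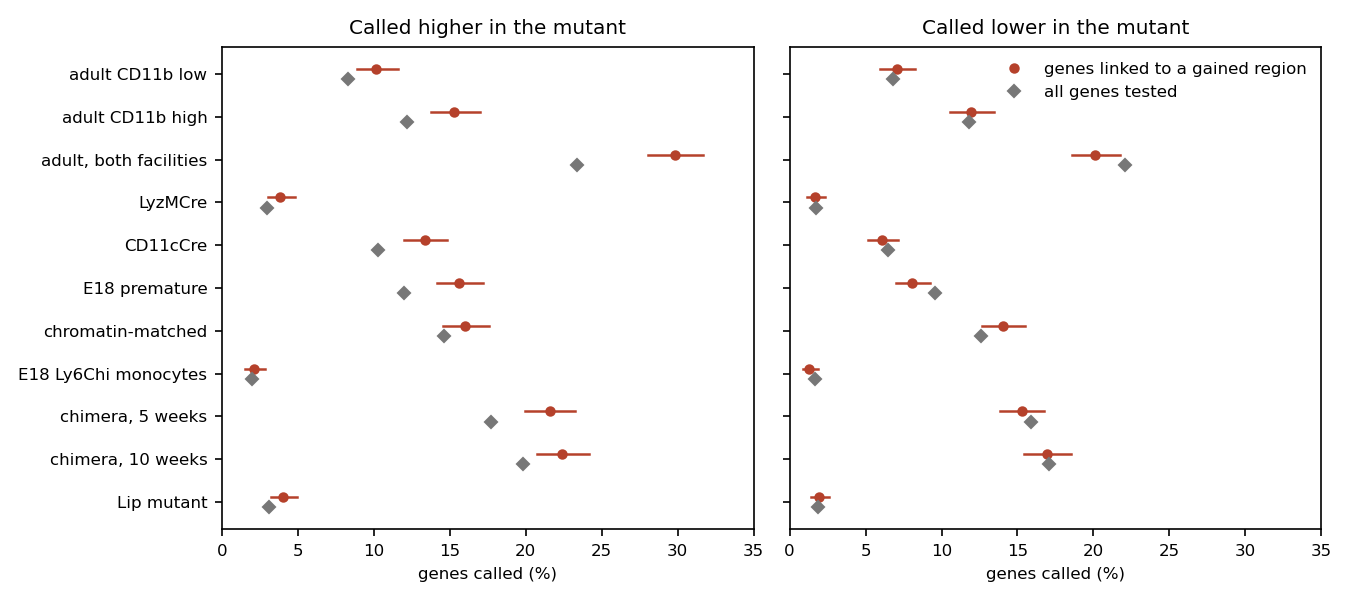
Share of genes linked to gained regions that were called higher (left) and lower (right) in each comparison, with exact 95% intervals, and the same share among all genes tested (diamonds). In the facility set 29.8% of linked genes were higher against 23.4% of all, and in the chromatin-matched set 16.0% against 14.6%.

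Gene length and expression were read beside this difference. The median level of linked genes tested was close to that of all genes tested, for example 30.0 against 28.2 CPM in the chromatin-matched set. When genes were split into 4 equal classes by length, the share called higher was larger among linked than among other genes in 9, 9, 8 and 9 of the 10 comparisons, shortest class first. For the share called lower this held in 4, 5, 1 and 4. These counts take no account of size. With CD11c-Cre deletion the shares higher were 9.87% of linked and 9.74% of other genes in the third class. In the longest class they were 17.2% and 12.1%. With LyzM-Cre deletion they were 2.05% and 1.98% in the third class. Genes with more gained regions were called higher more often in some comparisons. In the facility set the share was 28.7% with 1 region, 32.7% with 2 and 37.2% with 3 or more, and in E18 macrophages 14.4%, 18.4% and 24.6%. It was 15.7%, 17.4% and 16.0% in the chromatin-matched set. Median gene length grew over the same steps, at 42.8, 97.4 and 214 kb in the facility set. The part of length in these steps was not tested, nor that of length or level in the difference between linked and other genes.

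Genes linked to gained regions alone were set beside those linked to lost regions alone, with no test. Of genes in the facility set, 28.1% with gained regions only were higher and 18.8% lower, against 23.9% and 25.4% of genes with lost regions only. Shares in the chromatin-matched set were 15.3% higher and 11.4% lower with gained regions only (1591 genes), and 13.7% and 19.4% with lost regions only (1377 genes). Genes with both kinds stood at 17.4% higher and 19.7% lower (747 genes), and genes with neither but a constantly open region at 14.0% and 10.7% (6379 genes). Genes with gained regions only were in that set thus near the genes with neither.

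Levels of single genes are given from the chromatin-matched set in the order of knockout replicates 1, 2, 3 and wild-type replicates 1, 2, 3, as CPM with TMM scaling. Cebpb itself had 9.61, 13.4 and 31.6 CPM in knockout libraries, against 422, 529 and 508 CPM in wild-type libraries. Its groups lay far apart (log2 fold change −4.73, SE 0.43, adjusted p = 1.07e-04), and Cebpb was called lower in all 10 knockout comparisons. Calls were also counted with each library of a comparison left out in turn, and the count of calls that held each time is given as kept. A gene near 0 CPM in 1 group passed the count filter through the other group. That such a gene was called wherever it was tested is therefore partly set by the filter.

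Genes of antigen presentation stood among the linked genes with the largest rises. Of the 14 genes of an MHC class II and co-stimulation list, 5 were linked to gained regions (Cd74, Ciita, H2-DMa, Cd40 and Cd80), and all 5 were called higher in the chromatin-matched set. Of the 14, 12 were higher and none lower, so unlinked members moved the same way. Ciita encodes the master regulator of MHC class II transcription, and a gained region on its gene body (chr16:10487896-10488274) had heights of 10.3, 6.92 and 19.3. Ciita had 152, 47.9 and 134 CPM in knockout libraries, against 0.461, 0.184 and 2.2 CPM in wild-type libraries. The groups did not overlap (log2 fold change 6.79, SE 0.74, adjusted p = 6.34e-04).

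Cd74, the invariant chain that guides MHC class II molecules, had 6533, 3048 and 3940 CPM in knockout libraries, against 44.1, 55.8 and 192 CPM in wild-type libraries. Its log2 fold change was 5.53 (SE 0.73, adjusted p = 0.00189). It was called higher in all 10 knockout comparisons, 9 of them kept. The call that was not kept came from the 10-week chimera (log2 fold change 0.71, edgeR adjusted p = 0.0441), where leaving out knockout replicate 2 gave an adjusted p = 0.276 and leaving out wild-type replicate 1, 2, 3 or 4 gave an adjusted p = 0.0697, 0.0911, 0.12 or 0.0885. With the replicate number as a block, the adjusted p there was 0.0665. H2-DMa, a chaperone of peptide loading, had 927, 966 and 440 CPM in knockout libraries, against 385, 298 and 432 CPM in wild-type libraries. The nearest values of the groups were almost equal. Its log2 fold change was 1.06 (adjusted p = 0.0245), and the call ended without any 1 of 5 of the 6 libraries, with adjusted p between 0.0556 and 0.106. H2-DMa was called higher in 6 of 10 knockout comparisons, 2 of them kept, and lower in 0. In the facility set its groups overlapped, with means of 988.6 CPM in knockout and 950.5 CPM in wild-type libraries (log2 fold change −0.083, edgeR adjusted p = 0.654). H2 genes have close copies whose reads may be shared.

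Transcription factors of macrophages were taken from a list of 32 genes, 8 of them linked. In the chromatin-matched set Irf5, Mef2a, Bach2 and Tcf4 were among the linked genes called higher, and Runx2 was called lower. Of all 31 list genes tested, 13 were higher and 5 lower. Bach2, a repressor best known from B cells, carried 2 gained regions on its body. It had 13.2, 16.6 and 6.03 CPM in knockout libraries, against 0.923, 1.29 and 0.734 CPM in wild-type libraries (log2 fold change 3.55, SE 0.49, adjusted p = 6.16e-04). Bach2 was called higher in all 7 comparisons that tested it, 6 of them kept. Tcf4, the E2-2 factor, had 62.5, 58.4 and 68.9 CPM in knockout libraries, against 14.5, 13.8 and 13.4 CPM in wild-type libraries (log2 fold change 2.18, SE 0.17, adjusted p = 1.85e-05).

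Several linked signalling genes rose. Blnk, an adaptor below the B cell receptor, had a gained region 13.2 kb from its start (chr19:40980830-40981178). Its levels were 61.4, 51.1 and 94.5 CPM in knockout libraries, against 0.231, 1.29 and 1.1 CPM in wild-type libraries (log2 fold change 6.20, SE 0.42, adjusted p = 9.72e-06). It was called higher in all 9 comparisons that tested it, all 9 kept. It was not tested in fetal monocytes, with a mean of 0.366 CPM in knockout and 0.499 CPM in wild-type cells. Rasgrp1, an exchange factor that activates Ras, carried 2 gained regions (chr2:117303485-117304646 and chr2:117327000-117327229). It had 46.6, 40.4 and 44.8 CPM in knockout libraries, against 0, 0.368 and 0.917 CPM in wild-type libraries (log2 fold change 6.51, SE 0.43, adjusted p = 9.05e-06). Rasgrp1 was called higher in 9 of 10 comparisons, all 9 kept.

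Chn2, a Rac GTPase activating protein, had 47.0, 25.0 and 23.5 CPM in knockout libraries, against 0.231, 0.184 and 0 CPM in wild-type libraries (log2 fold change 7.66, SE 0.58, adjusted p = 1.73e-05). Chn2 was called higher in all 10 comparisons, all 10 kept. Tnfsf8, the CD30 ligand, had a gained region 9.51 kb upstream of its start (chr4:63870509-63871077). It had 48.7, 28.8 and 44.8 CPM in knockout libraries, against 0.231, 0.184 and 0.184 CPM in wild-type libraries (log2 fold change 7.51, SE 0.41, adjusted p = 3.21e-06). Sorl1, a sorting receptor of the endosome, had 52.7, 72.0 and 48.4 CPM in knockout libraries, against 0.231, 0.184 and 0.367 CPM in wild-type libraries (log2 fold change 7.64, SE 0.35, adjusted p = 1.86e-06). In these 3 genes every knockout library exceeded every wild-type library, and the wild-type values rest on a few counts each.

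Further linked genes rose. Fcrls, an Fc receptor-like gene of microglia, carried a gained region at chr3:87247403-87247897. It had 108, 72.3 and 86.8 CPM in knockout libraries, against 0.923, 0.184 and 0.367 CPM in wild-type libraries (log2 fold change 7.51, SE 0.37, adjusted p = 2.29e-06). Fcrls was called higher in 8 of 10 comparisons, all 8 kept. Mmp12, the macrophage elastase, lay beside 2 neighbouring gained regions (chr9:7361626-7362302 and chr9:7362335-7363116), 14.6 and 15.4 kb from its nearest start. It had 171, 167 and 316 CPM in knockout libraries, against 5.08, 6.07 and 7.52 CPM in wild-type libraries (log2 fold change 5.12, SE 0.32, adjusted p = 6.97e-06). Kit, the stem cell factor receptor, carried a gained region at chr5:75604282-75604697 with heights of 23.2, 11.1 and 10.7. It had 16.9, 26.4 and 38.8 CPM in knockout libraries, against 0.461, 0.920 and 0.917 CPM in wild-type libraries (log2 fold change 5.08, SE 0.44, adjusted p = 3.63e-05). Of the 27 listed monocyte and tissue macrophage genes with counts, 9 were linked. In the chromatin-matched set 8 of these were tested, with 5 higher and 2 lower, against 13 higher and 3 lower of 20 tested in the whole list.

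St6gal1, a sialyltransferase gene with 4 gained regions on its body, had 42.4, 40.4 and 36.6 CPM in knockout libraries, against 4.85, 9.39 and 7.34 CPM in wild-type libraries (log2 fold change 2.45, SE 0.25, adjusted p = 9.21e-05). Bin1, a membrane-bending protein, had 304, 310 and 183 CPM in knockout libraries, against 53.5, 50.6 and 51.9 CPM in wild-type libraries (log2 fold change 2.35, SE 0.22, adjusted p = 6.33e-05). Both were called higher in all 10 knockout comparisons, St6gal1 with 8 and Bin1 with 9 kept. The same 10 calls were made for Abcb1b and Eps8, with 8 kept each.

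**Figure D4:**
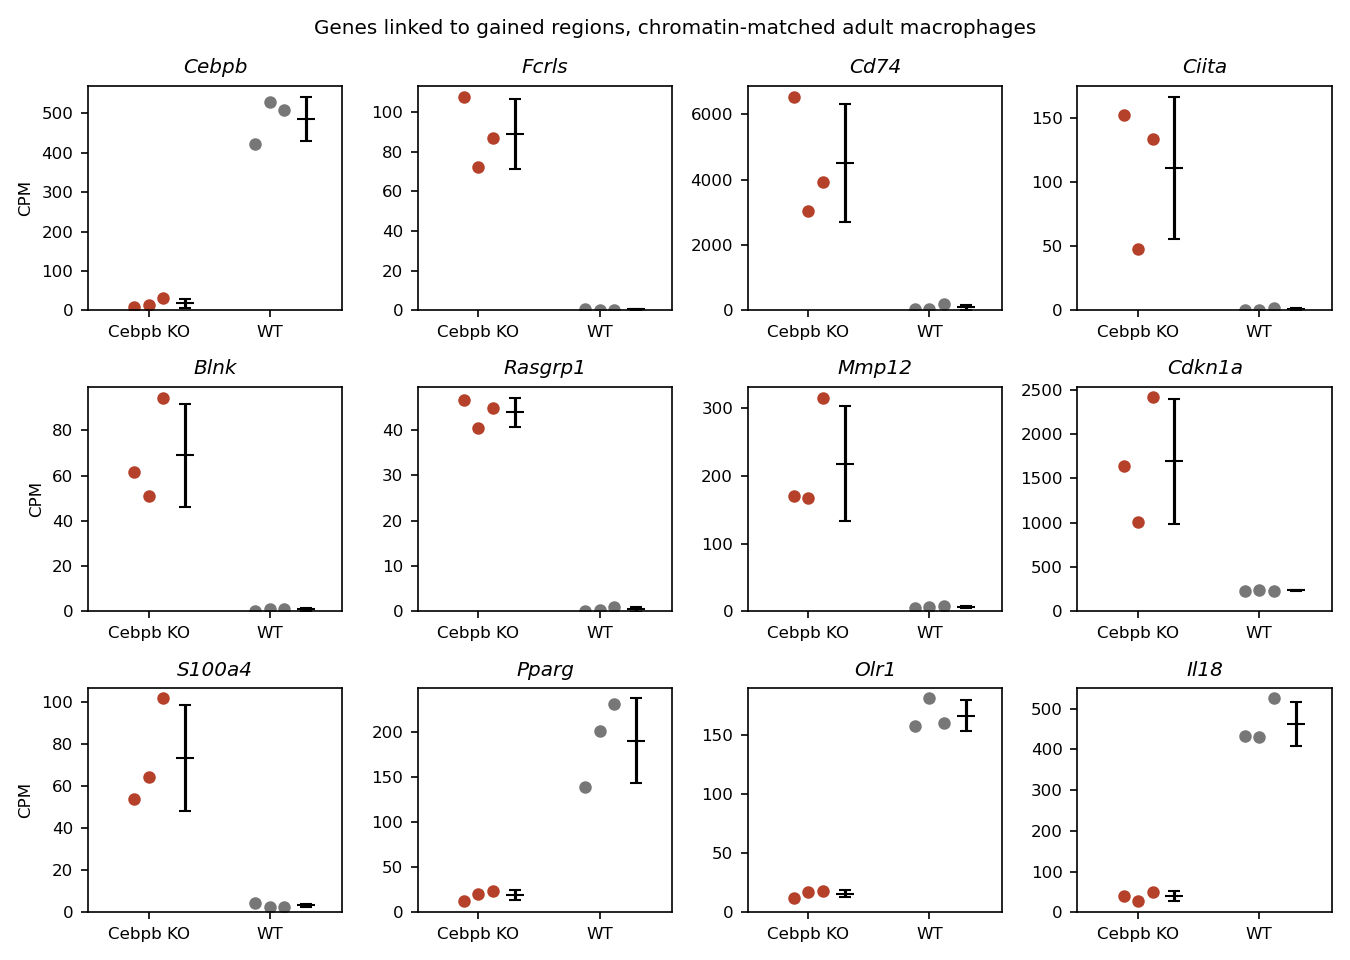
CPM of 12 genes in the chromatin-matched set (linear axes from 0), knockout libraries left of wild-type libraries, with mean and SD. Fcrls, Cd74, Ciita, Blnk, Rasgrp1, Mmp12, Cdkn1a and S100a4 lie higher and Cebpb, Pparg, Olr1 and Il18 lower in all 3 knockout libraries.

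Gained regions also lay beside genes that fell. Of 30 alveolar macrophage identity genes, 6 were linked to gained regions (Pparg, Olr1, Il18, Krt79, Mrc1 and Marco). In the chromatin-matched set 5 of the 6 were called lower and none higher, against 19 lower and 3 higher of the 29 list genes tested. Pparg, the lipid-sensing nuclear receptor of this cell type, carried a gained region 46.1 kb from its nearest start (chr6:115468013-115468314) with heights of 12.7, 3.80 and 7.12. Its levels were 12.7, 20.9 and 23.9 CPM in knockout libraries, against 139, 201 and 231 CPM in wild-type libraries (log2 fold change −3.31, SE 0.28, adjusted p = 3.27e-05). Over the facility set, Pparg ran from 20.9 to 115 CPM with a median of 61.0 in 6 knockout libraries, and from 172 to 418 CPM with a median of 303 in 7 wild-type libraries. In E18 macrophages it had 9.68, 6.69, 7.94 and 5.80 CPM in knockout cells, against 159, 176 and 179 CPM in wild-type cells. Pparg was called lower in 9 of 10 comparisons, 8 of them kept.

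Olr1, a scavenger receptor for oxidised lipoprotein, had 12.3, 17.1 and 18.3 CPM in knockout libraries, against 158, 182 and 161 CPM in wild-type libraries (log2 fold change −3.39, SE 0.20, adjusted p = 4.19e-06). Il18, an inflammasome cytokine, had 40.5, 28.8 and 51.2 CPM in knockout libraries, against 432, 429 and 526 CPM in wild-type libraries (log2 fold change −3.52, SE 0.24, adjusted p = 9.8e-06). Mrc1, the mannose receptor, had 57.4, 63.6 and 77.1 CPM in knockout libraries, against 768, 747 and 779 CPM in wild-type libraries (log2 fold change −3.53, SE 0.18, adjusted p = 2.46e-06). In all 3 the groups were separated by a wide gap. Marco, a scavenger receptor, was at 0.418, 0 and 46.5 CPM in knockout libraries, against 756, 1136 and 1132 CPM in wild-type libraries (log2 fold change −5.98, SE 1.68, adjusted p = 0.0503). The groups did not overlap, but knockout replicate 3 lay far above the other knockout libraries, and Marco missed the threshold.

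Other linked genes fell in nearly every comparison. Treml4, a receptor of the TREM family, had 1.05, 0.871 and 2.80 CPM in knockout libraries, against 67.1, 56.3 and 57.2 CPM in wild-type libraries, and was called lower in all 10 comparisons, all 10 kept. Plcb1, a phospholipase C, carried 3 gained regions and had 0, 0 and 1.94 CPM in knockout libraries, against 60.2, 58.7 and 51.4 CPM in wild-type libraries. Kcnn3, a calcium-activated potassium channel, had 4.39, 5.52 and 3.23 CPM in knockout libraries, against 172, 160 and 154 CPM in wild-type libraries. Both were called lower in all 9 comparisons that tested them. Atxn1, a nuclear repressor gene with 7 gained regions on its body, had 24.9, 18.9 and 25.8 CPM in knockout libraries, against 72.2, 63.0 and 58.9 CPM in wild-type libraries. Cpne8, a calcium-binding copine, was named as the nearest gene of a tall gained region 125 kb away, beyond the 10 kb of a link. Cpne8 had 2.51, 2.61 and 2.37 CPM in knockout libraries, against 45, 42.7 and 42.0 CPM in wild-type libraries. Each of these 5 genes was without overlap between the groups, and none was called higher in any knockout comparison.

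Pde4d, a cAMP phosphodiesterase gene with 7 gained regions, changed in both directions. It had 2.72, 1.16 and 1.29 CPM in knockout libraries of the chromatin-matched set, against 18.2, 14.2 and 11.4 CPM in wild-type libraries (log2 fold change −3.02, SE 0.39, adjusted p = 3.77e-04). At 10 weeks in chimeras it had 2.43, 0.925 and 0.594 CPM in knockout cells, against 6.51, 6.53, 8.23 and 7.74 CPM in wild-type cells (log2 fold change −2.49, adjusted p = 0.00186). At 5 weeks it had 3.96, 4.65, 3.69 and 3.46 CPM in knockout cells, against 2.89, 2.47 and 2.22 CPM in wild-type cells. The call at 5 weeks (log2 fold change 0.63, adjusted p = 0.0498) ended whichever library was left out, with adjusted p between 0.0527 and 0.155.

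Cell cycle and lipid genes near gained regions mostly fell where they changed. Of 29 listed cell cycle genes, 6 were linked. In the chromatin-matched set 5 of the 6 were lower (Mcm2, Mcm3, Aurkb, Ccnb2 and Cdk6), and Cdkn1a was higher. The whole list gave 18 lower and 3 higher of 28 tested. Cdk6 had 70.6, 62.4 and 73.0 CPM in knockout libraries, against 197, 201 and 178 CPM in wild-type libraries (log2 fold change −1.48, SE 0.15, adjusted p = 9.39e-05). Of the listed genes of lipid uptake, storage and PPAR targets, 8 of 28 were linked. Of the 7 tested, 3 were lower (Cd36, Olr1 and Plin1) and none higher, against 12 lower and 3 higher of 26 in the list. Among listed integrins and adhesion genes 8 of 15 were linked, with 2 higher (Itgb5 and Itga4) and 2 lower (Cd44 and Cd9) in the chromatin-matched set, against 5 higher and 3 lower of 15 in the list.

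Interferon genes beside gained regions were higher in the chromatin-matched set, but not in every set. Of 29 listed type I interferon response genes 5 were linked (Mx1, Ifit1, Stat2, Oasl1 and Ifi204). All 5 were called higher in the chromatin-matched set, as were 28 of all 29. Oasl1, an antiviral oligoadenylate synthetase-like gene, had 452, 112 and 753 CPM in knockout libraries, against 4.61, 5.52 and 6.05 CPM in wild-type libraries (log2 fold change 6.33, SE 0.78, adjusted p = 0.0013). Mx1 had 77.1, 30.2 and 163 CPM in knockout libraries, against 2.31, 2.76 and 2.57 CPM in wild-type libraries. Knockout replicate 2 was lowest and replicate 3 highest in both. The call of Ifi204 ended without wild-type replicate 1 (edgeR adjusted p = 0.051). In the 5-week chimera Mx1 and Oasl1 were called higher and Ifi204 lower (log2 fold change −1.40, edgeR adjusted p = 0.0281), and at 10 weeks Mx1 was called higher and Stat2 lower. The 5-week call of Ifi204 ended without any of 4 libraries left out singly (adjusted p = 0.0551 to 0.0765) and that of Oasl1 without any of 3 (adjusted p = 0.0569 to 0.105). The 10-week call of Mx1 ended without any of 5 (adjusted p = 0.0599 to 0.225) and with the replicate block (edgeR adjusted p = 0.0511). The ATAC cultures all received IFNα.

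Complement had no linked gene among 12, although 8 of 10 tested were higher and 1 lower in the chromatin-matched set. No marker of neutrophils (10 genes) or erythroid cells (6 genes) was linked. Summed marker levels of other cells did move with the knockout in this set. Neutrophil markers summed to between 211 and 500 CPM in knockout libraries and to between 55.0 and 67.1 CPM in wild-type libraries. Lymphocyte markers summed to between 99.4 and 258 CPM in knockout libraries and between 6.46 and 14.5 CPM in wild-type libraries, with 2 of 10 genes at 0 throughout. Erythroid markers summed to between 697 and 1863 CPM in knockout libraries and between 196 and 202 CPM in wild-type libraries. Dendritic cell markers overlapped between the groups, at 95.3 to 135 CPM in knockout libraries and 126 to 146 CPM in wild-type libraries, with 1 of 13 genes at 0. Summed epithelial markers were lower, at 9.26 to 20.9 CPM in knockout libraries and 31.7 to 75.4 CPM in wild-type libraries. Eosinophil, mast cell and basophil markers summed to 9.61 to 25.6 CPM in knockout libraries and 366 to 399 CPM in wild-type libraries, with 6 of 10 genes at 0. Stroma markers summed to 14.2 to 43.1 CPM in knockout libraries and 3.23 to 6.42 CPM in wild-type libraries. In the facility set lymphocyte markers summed to 23.4 to 112 CPM in knockout libraries and 0.564 to 1.38 CPM in wild-type libraries. Dendritic cell markers there summed to 112 to 166 CPM in knockout libraries and 179 to 236 CPM in wild-type libraries. In E18 macrophages dendritic cell markers summed to 754 to 1221 CPM in knockout libraries and 159 to 204 CPM in wild-type libraries, and neutrophil markers to 26.9 to 62.7 CPM in knockout libraries and 190 to 384 CPM in wild-type libraries. The part of such cells in the levels of Blnk, Rasgrp1, Cd74 and the other genes named from these sets was not tested.

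The genes whose own promoter window was covered can be tied to their regions more directly. Of the 93 genes 60 are in the count tables and 26 were tested in at least 1 knockout comparison. Of these, 13 were called higher at least once and never lower, 2 lower and never higher (Rps6ka1 and Zbtb32), 3 in both directions (Arhgef6, Gramd4 and Zcchc14), and 8 were never called, to be read against the shares of all genes tested given above, 34.4% higher and 28.9% lower. In the facility set 9 of 19 were higher (47.4%) and 3 lower, in E18 macrophages 6 of 18 were higher (33.3%) and 1 lower, and in the chromatin-matched set 4 of 16 were higher (25.0%) and 4 lower. The shares of all genes tested were 23.4% higher and 22.1% lower in the facility set, 12.0% and 9.55% in E18 macrophages, and 14.6% and 12.6% in the chromatin-matched set. In the other 7 knockout comparisons 2 to 8 of the 10 to 19 genes tested were higher and 0 to 3 lower. Shares higher were 30.0% (CD11b low, background 8.29%), 20.0% (CD11b high, 12.2%), 16.7% (LyzM-Cre, 2.96%) and 23.1% (CD11c-Cre, 10.3%). They were 27.3% (fetal monocytes, 1.99%), 42.1% (5-week chimera, 17.7%) and 35.7% (10-week chimera, 19.8%). Shares lower were, in this order, 10.0% (6.83%), 20.0% (11.8%), 0% (1.72%), 15.4% (6.48%), 0% (1.64%), 10.5% (15.9%) and 21.4% (17.1%).

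Cdkn1a, the p21 inhibitor of cyclin-dependent kinases, was high everywhere and higher without Cebpb. It had 1639, 1013 and 2422 CPM in knockout libraries of the chromatin-matched set, against 234, 244 and 235 CPM in wild-type libraries (log2 fold change 2.83, SE 0.29, adjusted p = 1.16e-04). Over the facility set it ran from 1185 to 3321 CPM with a median of 2038 in 6 knockout libraries, and from 387 to 908 CPM with a median of 478 in 7 wild-type libraries. The groups did not overlap in either set. E18 macrophages had 5243, 4545, 5625 and 5669 CPM in knockout cells, against 2109, 2313 and 2164 CPM in wild-type cells (log2 fold change 1.26, SE 0.25, adjusted p = 0.00205). Cdkn1a was called higher in 9 of 10 comparisons, 7 of them kept.

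S100a4, a calcium-binding protein of motile cells, had 53.9, 64.5 and 102 CPM in knockout libraries, against 4.38, 2.76 and 2.75 CPM in wild-type libraries (log2 fold change 4.49, SE 0.32, adjusted p = 1.33e-05). It was called higher in 6 of 10 comparisons, all 6 kept. Ablim1, an actin-binding LIM protein, had 4.81, 4.07 and 5.81 CPM in knockout libraries and was at 0 in all 3 wild-type libraries, which makes it at least 22.6-fold higher over a floor of 3 counts in the whole wild-type group. It was called higher in all 7 comparisons that tested it, 4 of them kept. In the chromatin-matched and LyzM-Cre sets, with controls at 0, it passed the count filter through the knockout libraries only. In fetal monocytes it was not tested, with overlapping groups and means of 1.67 CPM in knockout and 0.732 CPM in wild-type cells. Klrb1f, a gene of the killer cell lectin-like receptor family, was tested in E18 macrophages only. It had 15.3, 9.16, 25.7 and 37.1 CPM in knockout cells and 0 in the 3 wild-type libraries, at least 91.1-fold higher over the same kind of floor (edgeR adjusted p = 3.35e-05). With these zeros Klrb1f passed the count filter through the knockout libraries only.

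Sdcbp2, a syntenin family adaptor, was tested in the chimeras only. At 5 weeks it had 29.5, 26.8, 28.4 and 33.4 CPM in knockout cells, against 13.5, 7.78 and 6.67 CPM in wild-type cells (log2 fold change 1.66, SE 0.22, adjusted p = 3.59e-04). At 10 weeks it had 7.12, 7.12 and 13.7 CPM in knockout cells, against 2.17, 3.27, 3.13 and 1.98 CPM in wild-type cells (log2 fold change 1.83, SE 0.37, adjusted p = 0.00269). The knockout libraries were above the wild-type libraries at both times. Zbtb32, a zinc finger repressor, went the other way, with 6.45, 6.70, 7.41 and 13.5 CPM in CD11c-Cre knockout libraries, against 16.3, 15.5 and 14.8 CPM in control libraries. It was called lower in 5 of 7 comparisons and higher in none, with edgeR adjusted p from 0.00349 in the 5-week chimera to 0.0373 in the 10-week chimera, and 1 of the 5 calls was kept with each library left out in turn.

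**Figure D5:**
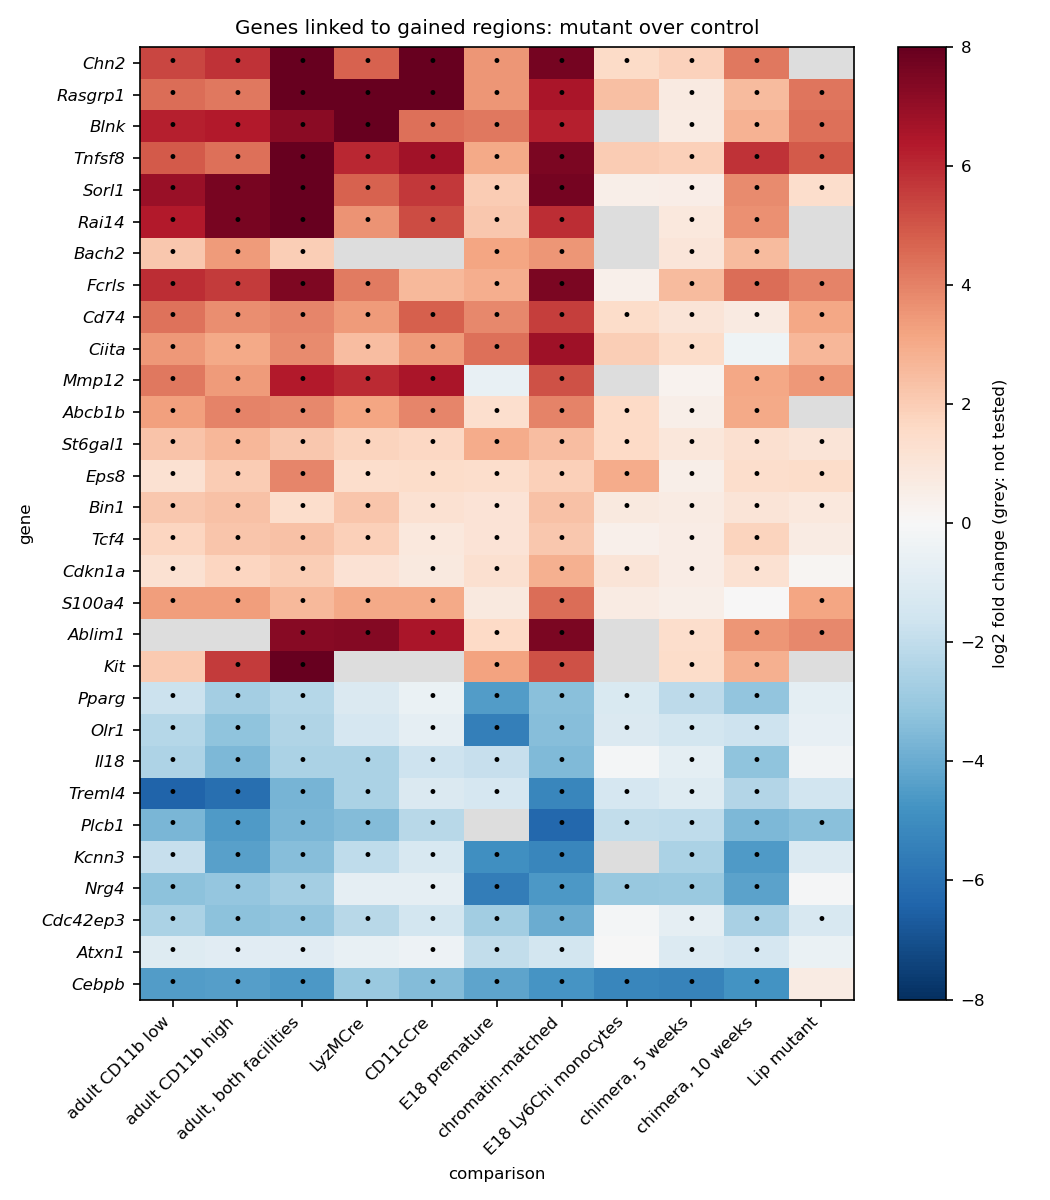
Log2 fold change (knockout or Lip over control, colour) of 30 genes in 11 comparisons, with black dots for calls at an adjusted p under 0.05 and grey where a gene was not tested; values beyond 8 on either side take the end colour. Chn2 is called higher and Treml4 lower in all 10 knockout comparisons.

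Fetal monocytes, chimeras and the Lip allele give the same linked genes at other stages and in another mutant. In E18 Ly6Chi fetal monocytes Chn2 had 64.4, 36.6, 41.9 and 65.3 CPM in knockout cells, against 15.4, 19.2 and 19.7 CPM in wild-type cells (log2 fold change 1.53, SE 0.26, adjusted p = 0.00168). Cd74 had 305, 441, 413 and 410 CPM in knockout monocytes, against 162, 97.8 and 160 CPM in wild-type monocytes (log2 fold change 1.49, SE 0.21, adjusted p = 3.95e-04). Pparg had 18.4, 14.9, 19.7 and 8.10 CPM in knockout monocytes, against 40.9, 34.5 and 34.6 CPM in wild-type monocytes (log2 fold change −1.23, adjusted p = 0.0176). This last edgeR call ended without wild-type replicate 1 (adjusted p = 0.0939), 2 (adjusted p = 0.0842) or 3 (adjusted p = 0.0533). In E18 macrophages of the same stage Cd74 had 5653, 7052, 2737 and 4452 CPM in knockout cells, against 530, 182 and 309 CPM in wild-type cells (log2 fold change 3.87, SE 0.44, adjusted p = 2.09e-05). Whether monocytes and macrophages differ in these effects was not tested.

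In 5-week chimeras Ciita had 114, 131, 193 and 170 CPM in knockout cells, against 39.8, 62.9 and 58.9 CPM in wild-type cells (log2 fold change 1.50, SE 0.22, adjusted p = 7.90e-04). At 10 weeks it had 55.0, 32.0 and 34.8 CPM in knockout cells, against 46.6, 66.7, 36.8 and 55.4 CPM in wild-type cells, with overlapping groups (log2 fold change −0.34, adjusted p = 0.293). Blnk at 5 weeks had 53.2, 51.0, 47.8 and 42.2 CPM in knockout cells, against 32.9, 30.1 and 28.3 CPM in wild-type cells, a rise of 0.67 on the log2 scale (SE 0.12, adjusted p = 0.00167). Wild-type cells of the 5-week chimera thus held 28.3 to 32.9 CPM of Blnk, and those of the chromatin-matched set at most 1.29 CPM, in sets that were scaled apart from each other.

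The Lip allele, named for the short C/EBPβ isoform without the activation domain, leaves the Cebpb transcript in place. Cebpb had 5989, 5447, 4262 and 3152 CPM in Lip libraries, against 2977, 2949, 2146 and 3937 CPM in Lip +/+ libraries, with overlapping groups (log2 fold change 0.65, adjusted p = 0.231). Of the 4 linked antigen presentation genes tested here, Cd74, Ciita and H2-DMa were called higher, as were 11 of 13 in the whole list, against 3.1% of all genes tested. The call of H2-DMa (log2 fold change 1.07, edgeR adjusted p = 0.0216) ended without any of 6 libraries left out singly (adjusted p = 0.0517 to 0.108). Cd74 had 10150, 7917, 11060 and 10790 CPM in Lip libraries, against 1209, 1285, 982 and 1212 CPM in Lip +/+ libraries (log2 fold change 3.09, SE 0.24, adjusted p = 3.79e-07). Ciita had 67.6, 82.9, 56.9 and 61.5 CPM in Lip libraries, against 10.9, 8.44, 9.98 and 14.0 CPM in Lip +/+ libraries (log2 fold change 2.63, SE 0.26, adjusted p = 4.9e-06).

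Blnk had 49.0, 39.6, 86.1 and 49.6 CPM in Lip libraries, against 3.12, 2.6, 2.37 and 2.62 CPM in Lip +/+ libraries (log2 fold change 4.41, SE 0.36, adjusted p = 5.48e-07). Among other linked genes of this set, Rasgrp1, Fcrls and Mmp12 were called higher and Plcb1 lower. Pparg and Cdkn1a did not pass the test. Pparg had 81.6, 98.0, 99.96 and 154 CPM in Lip libraries, against 171, 224, 228 and 124 CPM in Lip +/+ libraries (log2 fold change −0.78, SE 0.25, adjusted p = 0.104). Cdkn1a had 1883, 1618, 1958 and 1055 CPM in Lip libraries, against 1707, 1561, 735 and 1779 CPM in Lip +/+ libraries (log2 fold change 0.17, SE 0.28, adjusted p = 0.88). Marco fell to 34.3, 28.9, 78.3 and 46.8 CPM in Lip libraries, against 487, 735, 977 and 637 CPM in Lip +/+ libraries (log2 fold change −3.92, SE 0.33, adjusted p = 8.64e-07).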

How the data were processed

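The members, gene lists and printed promoters were chosen with earlier results of these data known. The 3 deposited tables hold raw counts of 22050 genes, made with STAR 2.6.1a and featureCounts 1.6.3 on GRCm38 (mm10), per the submitters' processing notes. No source used here says if reads with 1 molecule barcode were collapsed. Of 99 RNA libraries, 81 entered a fit. The 5 ATAC and 2 ChIP peak lists hold each peak's −log10 q and its fold over background, deposited by the authors. Those notes name MACS2 2.2.7.1, BWA 0.7.17 and Bowtie2. The deposited score of a peak, a scaled −log10 q, was not used beyond a check. Lists were called per culture and were not scaled to each other. The ATAC lists begin at a −log10 q of 1.34 to 1.42, and the ChIP lists at 5.

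Merging used numpy 2.4.6 in Python 3.11.15, and bedtools 2.31.1 gave the same regions. Gene coordinates came from RefSeq GRCm38.p6, matched for 21340 genes (20570 by symbol, 770 by synonym), without strand. Counts were fitted in R 4.3.3 with edgeR 4.0.16 (TMM, filterByExpr with a minimum count of 10, robust quasi-likelihood). The CD11b low and CD11b high comparisons were each fitted with both knockout groups and the wild-type group. The facility fit also held 3 Cebpb heterozygous female libraries of facility 1. These extra libraries shaped the filter, scaling and dispersion but entered no contrast. The other comparisons were fitted on their own libraries. Standard errors are the log2 fold change over the root of F. The facility set averaged the effects of 2 female strata and 1 male stratum. DESeq2 1.42.0 was an alternative. Floors of 3 counts stood for 0.168 to 4.67 CPM per library, and cover counting error only. On simulated data, 189 of 200 changed genes of the chromatin-matched set were recovered with 6 false calls, and 149 of 197 of the LyzM-Cre set with 4.

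Named genes followed a rule: Cebpb, the 12 tallest gained regions, the 8 genes with the most gained regions, the 12 and 8 genes with a mean of 20 CPM or more and the most calls higher or lower, up to 3 linked members of each of 24 lists, and the 6 tallest promoter regions. Cdkn1a, S100a4 and Ablim1 as promoter examples, the bound regions and the p53 motif were chosen after their values were seen. Genes with close copies, such as H2 and Oas genes, and overlapping or antisense genes, are uncertain. Same-numbered knockout and wild-type libraries of the 10-week chimera deviated together from their group means (r of 0.125, 0.128 and 0.129). In the 5-week chimera r was 0.352, 0.0176 and 0.0549. Hosts of both chimeras had received both marrows, and the labels do not name the host of a library. Pairing is therefore not settled, and the main fits used none.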

Additional observations from a re-analysis of the deposited data

Results flagged for a closer look

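Values were looked at again where a library stood apart from its group or where a gene was called in opposite directions without overlap of its groups. In groups of 4 libraries, 33 groups of printed values were examined with Dixon's criterion, which chance meets in about 5% of groups, and 1 met it. Zbtb32 had 13.5 CPM in CD11c-Cre knockout replicate 4, above the other 3 knockout libraries at 6.45, 6.70 and 7.41 CPM. The cause was not tested.

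Lipa was called higher in the CD11c-Cre set (log2 fold change 0.72) and lower in E18 macrophages (−1.67), the chromatin-matched set (−0.98), the 5-week chimera (−1.11) and the 10-week chimera (−0.64). The call in the 10-week chimera ended without knockout replicate 2 (edgeR adjusted p = 0.0512). Pde4d was called higher in the 5-week chimera (0.63) and lower in the CD11c-Cre set (−1.72), the chromatin-matched set (−3.02) and the 10-week chimera (−2.49). In each of these comparisons every knockout library lay on 1 side of every control library. The difference between the comparisons was not tested.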

How the results depend on the processing

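The number of gained regions was 3167 when knockout peaks had to reach a −log10 q of 5 and control peaks could have any q. This setting was chosen after seeing the data. The number was 6859 to 11465 with 1 culture left out, which removes 1 condition of the rule. The share of gained regions bound in both ChIP lists was 0.693% with ChIP peaks at a −log10 q of 10 or more, 0.355% by ChIP summit and 1.31% for regions gained at a −log10 q of 5 or more. Under settings chosen after seeing the data it was 3.76% for regions gained by ATAC summit, and 1.03% to 3.72% with 1 culture left out (the highest without control replicate 2). With the replicate number as a block, the shares of linked genes in the 10-week chimera were 18.6% higher and 14.6% lower. Whether same-numbered libraries shared a host there or in the 5-week chimera is not given by the labels. In the other sets same-numbered samples share a number only. There the replicate block gave 9.55% higher in the CD11b high set and 11.6% lower in the CD11c-Cre set. A crossed pairing gave 7.1% higher and 3.11% lower in the LyzM-Cre set, with 144 and 63 calls of linked genes. It gave 628 and 438 calls of linked genes in the facility set. The background moved in these refits too. Over all fits of the facility set 1914 to 2710 of all genes tested were higher and 1862 to 2849 lower. DESeq2 gave 3.14% lower in the Lip set. Without genes also linked to lost regions 0.769% of linked genes were lower in fetal monocytes. With 1 library left out, the shares higher and lower ran as follows. They were 7.97% to 10.3% and 4.64% to 6.84% in the CD11b low set (the lowest without wild-type replicate 2), 11.6% to 18.4% and 9.39% to 14.6% in the CD11b high set, 24.2% to 29.3% and 17.6% to 23.0% in the facility set, and 1.93% to 19.2% and 0.870% to 12.9% in the LyzM-Cre set. They were 9.18% to 18.8% and 4.05% to 12.1% in the CD11c-Cre set, 10.2% to 16.0% and 5.37% to 8.53% in E18 macrophages, 10.8% to 20.7% and 9.25% to 19.2% in the chromatin-matched set, and 2.90% to 3.99% and 1.12% to 2.63% in the Lip set. They were 0.698% to 2.49% and 0.419% to 1.61% in fetal monocytes (each wild-type replicate lowered both), 14.1% to 21.3% and 9.86% to 15.3% in the 5-week chimera, and 17.9% to 25.6% and 12.8% to 23.3% in the 10-week chimera. The cause was not tested. The share higher stayed above the background of the same fit in every fit of the counts, except in 1 of 12 for fetal monocytes. The share lower lay above it in 9 of 13 fits of the CD11b low set and 12 of 13 of the CD11b high set. It did so in 0 of 19 fits of the facility set and 7 of 12 of the 10-week chimera. Counts of the other sets are given above. Other ways of linking genes and other sets of gained regions or linked genes were not set against a background. Of 3617 values of named genes with a library left out, 297 lost the call, and of 1983 values under other settings 43 did, 26 of these under the block. None changed direction among called values. Depth limits the low genes: a floor of 3 counts is 0.168 to 4.67 CPM.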
